A study of Homo sapiens with 26 samples.

Results

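The olfactory receptor genes of chromosome 11 were examined for binding of HALO-tagged FOXA1, 3 FOXA1 variants and HNF4A in human fibroblasts. Members were the protein-coding genes on chromosome 11 of GENCODE 44, lifted to GRCh37, whose symbol is OR, a family number, letters and a gene number, as in OR2D2. This rule took 171 genes, of 20163 protein-coding genes in all. A peak was counted for a gene when it overlapped the gene body or the 20 kb on either side by at least 1 bp, a stretch called the window of that gene. The windows of the 171 genes merged into 46 intervals holding 4.87 Mb of known sequence, and 306 peak rows over 5 lists fell in them.

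Binding was measured by ChIP-seq in BJ cells, an established line of foreskin fibroblasts, with an antibody to the HALO tag, a protein tag fused to each factor. The 5 constructs were FOXA1, the variants labelled FOXA1dbd, FOXA1nhaa and FOXA1rraa, and HNF4A, each after 48 hours of ectopic expression. The labels list 2 ChIP and 2 input samples for each construct, but only 1 full peak list was used for each, so there was no replicate error and no difference between constructs could be tested. The values beside shares are 95% Wilson intervals and those beside densities are 95% exact Poisson intervals. Both cover counting error over peaks or genes only. The lists give no read depth.

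Olfactory receptors are G protein-coupled receptors that detect odorants in the sensory neurons of the nose. The coding sequence of most of them lies in 1 exon, the genes stand in tandem clusters with many pseudogenes, and each mature olfactory neuron expresses a single receptor allele. They fall into class I receptors, which resemble those of fish, and class II receptors. FOXA1 belongs to the forkhead proteins and is known as a pioneer factor, able to bind its sites in nucleosomal DNA, and HNF4A is a nuclear receptor of liver and gut. Fibroblasts are not olfactory cells, and the lists say where a tagged protein was found on the DNA, not whether a receptor was transcribed.

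The 5 lists were not made alike, which bears on every comparison that follows. In the windows, 126 FOXA1 rows carried 117 peak names, because some rows are pieces of a longer peak, and 7 rows were narrower than 50 bp. Of the 48 FOXA1rraa rows, 23 had the coordinates of FOXA1 rows, 18 were rows of the FOXA1nhaa list and 7 carried the prefix Nonspecific_FOX. Of the 21 FOXA1dbd peaks, 18 lay wholly inside a FOXA1 peak, and 3 had the coordinates of FOXA1 rows. Neighbouring windows overlap, so 68 of the 126 FOXA1 peaks were counted for more than 1 gene and genes were not independent.

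The sites below are shown because the results turn on them: the strongest FOXA1 site of the windows, a FOXA1dbd site that lay outside every FOXA1 peak, the site at the edge of the cluster with almost no binding, a FOXA1nhaa site in a run of genes without FOXA1, and the strongest HNF4A site. Each is the 200 bp around the centre of the peak on the plus strand of hg19, 5′ to 3′, which for the narrow peak near OR5AK2 runs past both its ends. Capitals mark the forkhead core, TATTTAC or TGTTTAC on either strand, the short sequence that forkhead proteins recognise.

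FOXA1 near OR2D2 (chr11:6921768-6921967): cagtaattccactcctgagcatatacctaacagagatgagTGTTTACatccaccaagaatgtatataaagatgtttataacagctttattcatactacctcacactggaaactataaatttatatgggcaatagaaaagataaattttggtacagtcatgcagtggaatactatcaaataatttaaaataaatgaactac

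FOXA1dbd near OR5B12 (chr11:58210534-58210733): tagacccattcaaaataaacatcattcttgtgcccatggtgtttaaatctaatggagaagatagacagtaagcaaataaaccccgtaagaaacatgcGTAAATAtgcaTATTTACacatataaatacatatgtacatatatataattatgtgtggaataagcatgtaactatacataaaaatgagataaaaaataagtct

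FOXA1 near OR5AK2 (chr11:56759622-56759821): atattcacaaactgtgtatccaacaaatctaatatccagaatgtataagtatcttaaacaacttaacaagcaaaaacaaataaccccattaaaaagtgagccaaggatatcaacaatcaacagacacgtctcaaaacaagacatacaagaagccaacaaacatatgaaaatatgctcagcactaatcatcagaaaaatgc

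FOXA1nhaa near OR8G1 (chr11:124125037-124125236): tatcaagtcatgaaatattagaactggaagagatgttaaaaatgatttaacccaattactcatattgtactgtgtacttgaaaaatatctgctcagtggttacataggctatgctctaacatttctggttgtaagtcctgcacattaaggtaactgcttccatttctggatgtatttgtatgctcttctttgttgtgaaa

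HNF4A near OR2D2 (chr11:6915339-6915538): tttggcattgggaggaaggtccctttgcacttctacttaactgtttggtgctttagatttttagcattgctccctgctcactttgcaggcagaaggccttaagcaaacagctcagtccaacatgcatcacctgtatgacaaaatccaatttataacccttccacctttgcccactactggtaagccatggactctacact

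The FOXA1 site near OR2D2 holds 1 core, and the FOXA1dbd site near OR5B12 holds 2 of them in opposite orientations. The other 3 sites hold none. The G+C content was 30.5% for the FOXA1 site near OR2D2, 28% for the FOXA1dbd site near OR5B12 and 45% for the HNF4A site near OR2D2.

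Fewer than 1 in 2 of the olfactory receptor genes had a FOXA1 peak in the window. FOXA1 reached 75 of the 171 genes, or 43.9% (36.6 to 51.4), against 76% of all protein-coding genes. FOXA1nhaa reached 80 genes, 46.8% (39.5 to 54.3), against 69.1%. FOXA1rraa reached 45 genes, 26.3% (20.3 to 33.4), against 61.5%, and FOXA1dbd reached 32 genes, 18.7% (13.6 to 25.2), against 45.4%. HNF4A reached 22 genes, 12.9% (8.65 to 18.7), against 75.3%. All 5 intervals of the receptors lay below the value for all protein-coding genes.

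A longer gene has a longer window, so genes of like length were compared next. The receptor genes had a median length of 1074 bp and the protein-coding genes one of 27219 bp. Among genes under 10 kb, 43.1% (35.6 to 51.1) of 153 receptor genes had a FOXA1 peak, compared with 54.4% of 5254 protein-coding genes. For FOXA1rraa the values were 22.9% (16.9 to 30.1) and 35.1%. For FOXA1dbd they were 18.3% (13 to 25.2) and 21.2%, and for FOXA1nhaa 43.8% (36.2 to 51.7) and 45.3%, so these differences lay within the counting error of the receptors. HNF4A was found at 11.1% (7.05 to 17.1) of the short receptor genes and at 61.2% of short protein-coding genes. Short genes of chromosome 11 other than the receptors, 347 in number, stood at 53.3% (48.1 to 58.5) for FOXA1, which overlapped the receptors' interval, and at 72.9% (68.0 to 77.3) for HNF4A, which did not. For FOXA1rraa they stood at 36.3% (31.4 to 41.5), which did not overlap either, and for FOXA1dbd and FOXA1nhaa at 23.9% (19.7 to 28.7) and 47.8% (42.6 to 53.1), which did. The receptor shares depended on cluster 7, a stretch of 48 genes described below. Without it, a cut made after the values were seen, 60.2% of 123 members of any length had a FOXA1 peak. FOXA1nhaa then stood at 63.4%, FOXA1rraa at 35.8%, FOXA1dbd at 26% and HNF4A at 17.9%. Short members without cluster 7 were not counted apart.

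**Figure D1:**
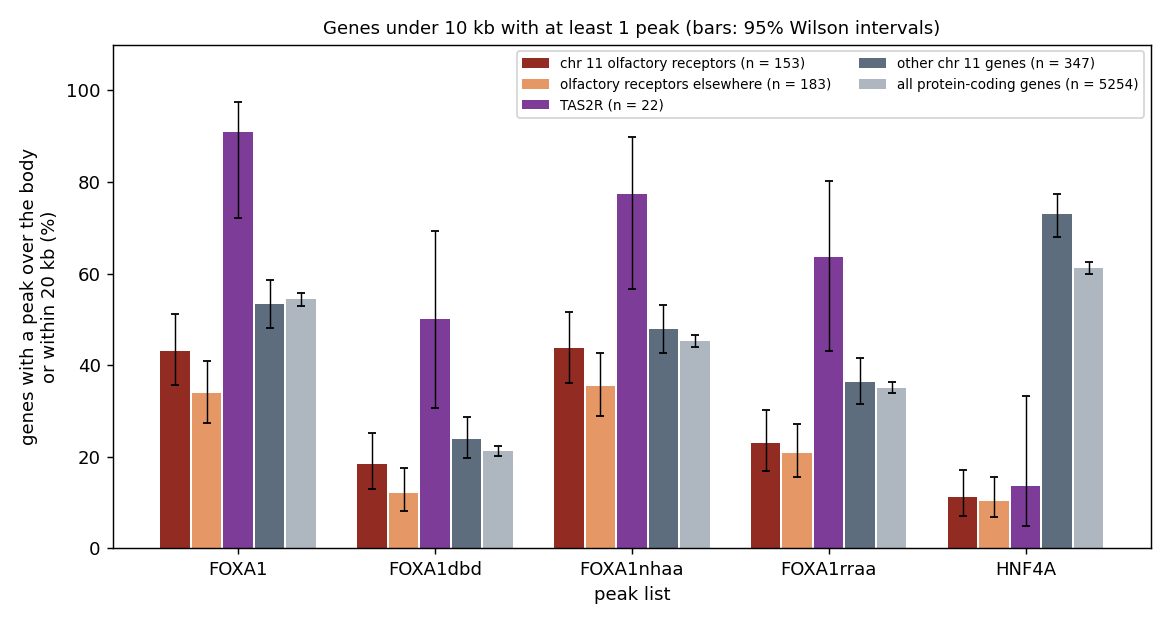
Percent of genes under 10 kb with at least 1 peak over the body or within 20 kb (vertical axis), for each of the 5 peak lists (horizontal axis) and 5 gene classes (bars, with 95% Wilson intervals). The chromosome 11 receptors stand below other short genes most clearly for HNF4A, at 11.1% against 61.2% of all short protein-coding genes.

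Other chemoreceptor families were set beside these genes, with all lengths included. Of 228 olfactory receptor genes on other chromosomes, 33.8% (27.9 to 40.1) had a FOXA1 peak, 36.4% (30.4 to 42.8) a FOXA1nhaa peak and 11% (7.54 to 15.7) an HNF4A peak. The intervals of both receptor groups overlapped in each of these lists. The 24 TAS2R genes, which encode bitter taste receptors and are as short (median 1086 bp), had a FOXA1 peak in 91.7% (74.2 to 97.7) of cases and a FOXA1nhaa peak in 79.2% (59.5 to 90.8). Their HNF4A share was 20.8% (9.24 to 40.5), which overlapped that of the olfactory receptors. TAS2R genes also share windows, and their number is small.

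Per Mb of sequence, too, the windows held fewer peaks of every list than the rest of the chromosome. The windows held 25.9 (21.5 to 30.8) FOXA1 peaks per Mb and the rest of chromosome 11 held 50.3 (49.1 to 51.6). FOXA1nhaa stood at 18.9 (15.2 to 23.2) against 35.9 (34.9 to 37.0). FOXA1rraa stood at 9.85 (7.26 to 13.1) against 22.5, and FOXA1dbd at 4.31 (2.67 to 6.59) against 9.64. The ratio of the windows to the rest was 0.514 for FOXA1, 0.526 for FOXA1nhaa, 0.447 for FOXA1dbd, 0.438 for FOXA1rraa and 0.222 for HNF4A. Over the bodies of the receptor genes alone the ratio was 0.904 for FOXA1, 0.854 for FOXA1nhaa, 0.549 for FOXA1dbd, 0.613 for FOXA1rraa and 0.303 for HNF4A. Of the 43 FOXA1 peaks over these bodies, 18 overlapped OR51B5, whose annotated body of 202209 bp overlaps other protein-coding genes. For FOXA1nhaa it was 9 of 29. The body ratios were not recomputed without this gene. HNF4A had 3.90 (2.35 to 6.09) peaks per Mb in the windows and 17.6 (16.9 to 18.3) elsewhere on the chromosome.

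Sequence outside other protein-coding genes is a nearer comparison, because protein-coding genes elsewhere on the chromosome carried more peaks. The 2 sides are still unlike, since the windows keep the bodies of the receptor genes and the rest leaves out every protein-coding body. Outside the bodies of other protein-coding genes the windows held 21 (16.8 to 26.1) FOXA1 peaks per Mb, and the remaining chromosome outside protein-coding genes held 30.3 (28.9 to 31.7). For HNF4A the values were 2.54 (1.22 to 4.66) and 11.6 (10.8 to 12.5), for FOXA1nhaa 16.2 (12.5 to 20.7) and 23.5 (22.3 to 24.7), and for FOXA1rraa 7.61 (5.13 to 10.9) and 13.3 (12.4 to 14.3). The FOXA1dbd values, 4.31 (2.51 to 6.90) and 6.79 (6.16 to 7.46), had intervals that overlapped. The windows were poorer in G+C, at 37.8% against 41.7%, and held more forkhead cores, at 457 per Mb against 377. The share of 50-base words that occur once in the reference was 92.3% in the windows and 93.3% in the rest of the chromosome. The part of base composition in the density difference was not tested.

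The peaks that did fall in the windows scored close to the middle of their lists. The authors' score had a median of 112 for FOXA1 in the windows and 124 over the whole list. The medians were 68 and 61 for FOXA1dbd, 86 and 89 for FOXA1nhaa, 113 and 106 for FOXA1rraa, and 101 and 99 for HNF4A. The share of peaks above the median of their own list ran from 40.5% of FOXA1 peaks to 66.7% of FOXA1dbd peaks, of which there were only 21.

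**Figure D2:**
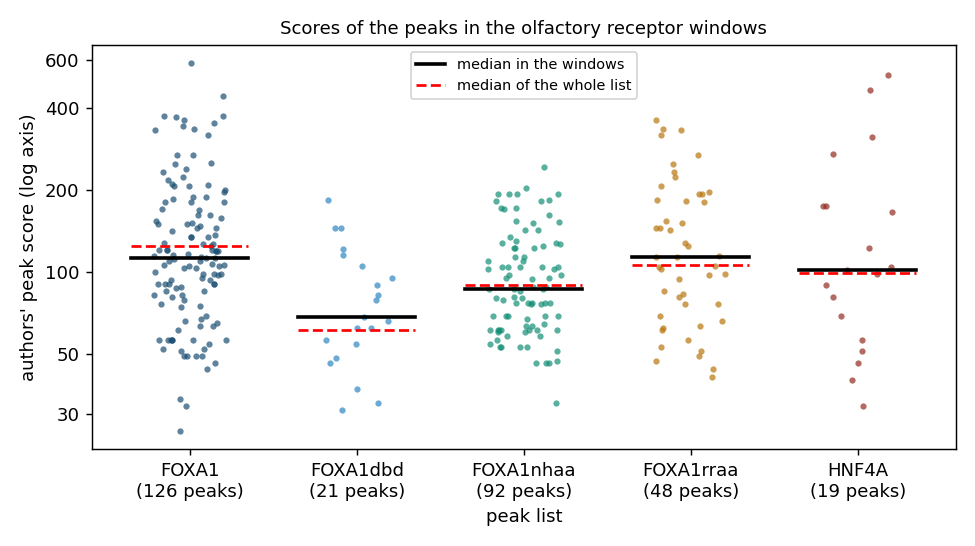
The authors' score (log axis) of every peak in the windows, by list, with the median in the windows (solid line) and of the whole list (dashed line). The lines lie close together in each list, for example 112 and 124 for FOXA1, and the highest point is the FOXA1 peak near OR2D2 at 585.

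The genes lie in 11 clusters, taken as runs with no gap above 500 kb between members. Cluster 1 runs from OR52B4 to OR52W1, at 4.39 to 6.22 Mb, and holds all 55 class I genes, families 51 to 56. It had 53 FOXA1 peaks, or 34.3 (25.7 to 44.9) per Mb. Cluster 2, the 8 genes from OR2AG2 to OR2D3, had 17 FOXA1 rows, 89.3 (52 to 143) per Mb, against 50.3 in the rest of the chromosome. Pieces of the same peak near OR6A2 are counted apart in it. Cluster densities were not recomputed with joined rows, so it is not known whether its interval would still lie above 50.3. Every gene of cluster 2 had both a FOXA1 and a FOXA1nhaa peak in its window. Cluster 3, from OR5P2 to OR10A3, had 8 FOXA1 peaks over 4 genes, and cluster 8, from OR9Q1 to OR5B21, had 23 over 13 genes, 51.5 (32.7 to 77.3) per Mb.

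Cluster 7 was almost empty. It is the second largest, with 48 class II genes from OR4A16 to OR5AK2, and held 2 FOXA1 rows, 1.60 (0.194 to 5.78) per Mb. These are pieces of the same peak, scored 98, and lie 2317 and 2614 bp beyond OR5AK2, the last gene of the cluster. The preceding 47 genes, from OR4A16 to OR5G3, span 1.48 Mb and had no FOXA1, FOXA1dbd, FOXA1rraa or HNF4A peak in any window. A FOXA1nhaa peak near OR8J2, scored 58 and holding a forkhead core, was the exception in that run. FOXA1dbd and HNF4A had 0 peaks in the whole cluster, which allows a share of up to 6.25% of its genes. Such sparse sequence was not particular to receptor genes. Of 129 stretches of 1 Mb on chromosome 11, 11 held 2 or fewer FOXA1 peaks. These included 9 of the 115 stretches without a member gene and 1 of the 7 with 10 or more members.

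Clusters 4, 5 and 6 also held few peaks. They hold 7, 2 and 3 genes and lie between 48.2 and 51.5 Mb, on the other side of the unknown bases that stand for the centromere in the reference, which run from 51.6 to 54.7 Mb. A single FOXA1 peak, scored 49, lay in the windows of OR4S1 and OR4C3, and clusters 5 and 6 had no peak of any list. Over clusters 4 to 7 together, a grouping made after these values were seen, 3 of 60 genes, 5% (1.71 to 13.7), had a FOXA1 peak, compared with 72 of 111 genes, 64.9% (55.6 to 73.1), in the other clusters. FOXA1nhaa was found at 3 of 60 and 77 of 111 genes, FOXA1rraa at 1 and 44, FOXA1dbd at 2 and 30, and HNF4A at 1 and 21. Without cluster 7, the share of members with a FOXA1 peak was 60.2% of 123 genes, and the density ratio to the rest of the chromosome rose from 0.514 to 0.687.

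Several measures of the sequence were set beside this gap. The share of 50-base words that occur once was 93.5% in the windows of cluster 7 and 93.3% over the rest of the chromosome, and 85.7%, 85.2% and 76.9% in clusters 4, 5 and 6. Cluster 7 held 493 forkhead cores per Mb, more than the 377 of the rest, and its G+C content was 36.2%. The sequence between clusters 4 and 7 and outside receptor windows was as sparse, with 1 FOXA1 peak in 3.5 Mb, though only 76.2% of its words occur once. The 500 kb before the windows of cluster 7, of which 0.396 Mb are known bases, held 0 peaks of each list, which allows up to 9.3 per Mb. Their G+C content was 37% and 67.8% of their words occur once. The 500 kb that follow the windows held 16 FOXA1 peaks, 32 (18.3 to 52) per Mb, and 17 HNF4A peaks, with a G+C content of 45.6% and 96.6% of words occurring once. The part of these sequence measures in the gap was not tested.

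**Figure D3:**
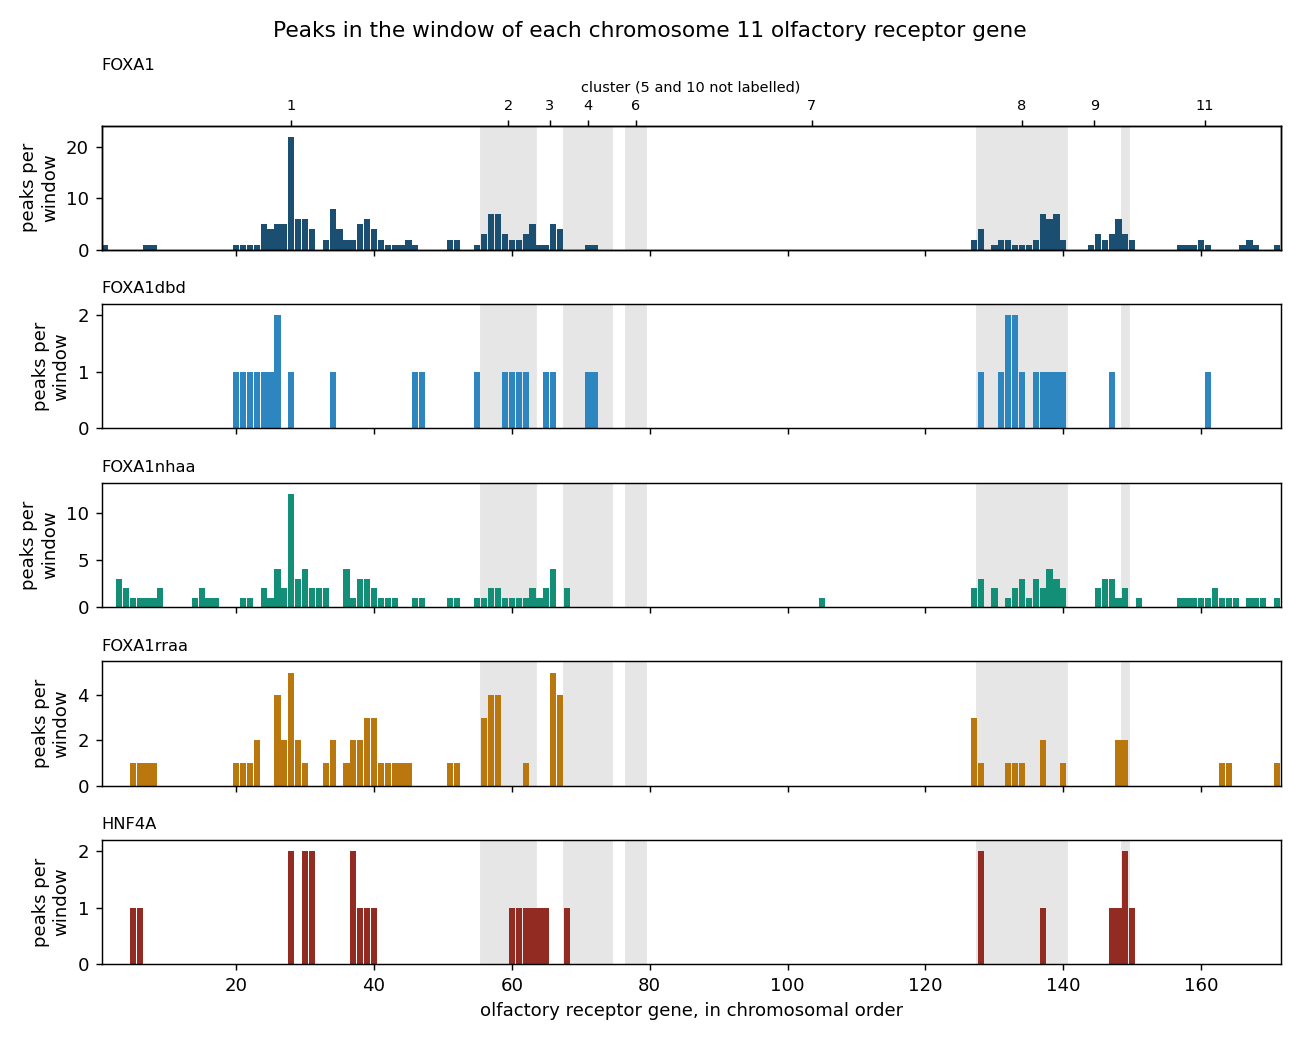
Number of peaks in the window of each of the 171 receptor genes in chromosomal order (horizontal axis), in 1 panel per list with its own scale, with alternate clusters shaded. The stretch of cluster 7 is empty but for a FOXA1nhaa peak and its last gene, and the tallest bar is OR51B5 with 22 FOXA1 peaks.

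Away from the centromere the last cluster was also thin. Cluster 11, the 22 genes from OR6X1 to OR8A1 near the far end of the chromosome, had 8 FOXA1 peaks, 13.1 (5.65 to 25.8) per Mb, and 9 FOXA1nhaa peaks, 14.7 (6.73 to 27.9) per Mb. These FOXA1 peaks reached 10 genes and the FOXA1nhaa peaks 14. Its 94.7% of words occurring once and its 538 forkhead cores per Mb were both above the values of the rest of the chromosome. FOXA1dbd, FOXA1rraa and HNF4A had 1, 2 and 1 peaks there.

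**Figure D4:**
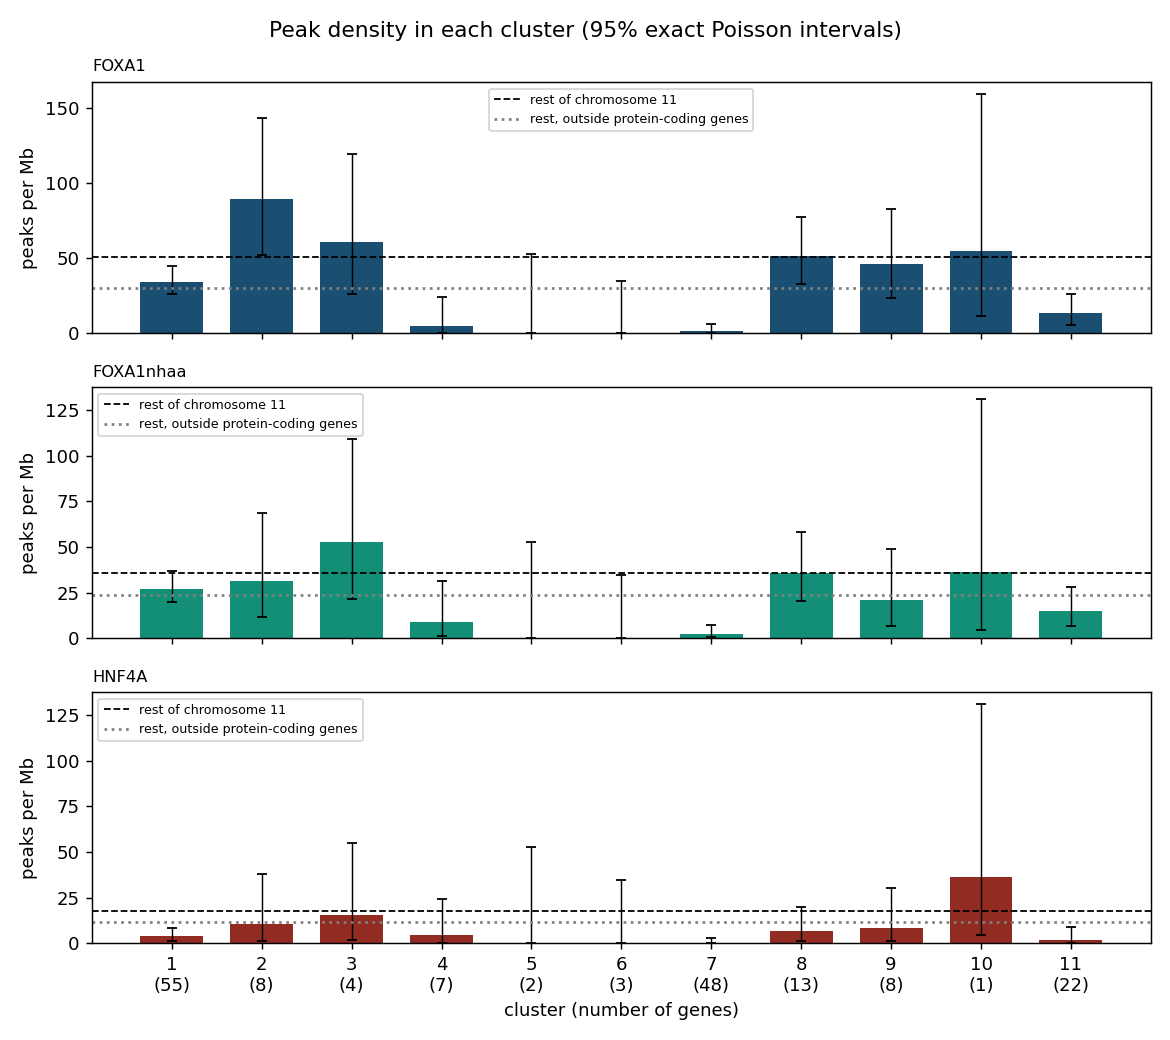
Peaks per Mb in the windows of each cluster (bars, with 95% exact Poisson intervals) for FOXA1, FOXA1nhaa and HNF4A, with the rest of chromosome 11 as a dashed line and its part outside protein-coding genes as a dotted line. Clusters 4 to 7 lie lowest for FOXA1, with 1.60 per Mb in cluster 7 against 89.3 in cluster 2.

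The share of genes with FOXA1 was higher in class I than in class II, with intervals that overlapped slightly. A FOXA1 peak was found at 58.2% (45.0 to 70.3) of the 55 class I genes and at 37.1% (28.8 to 46.1) of the 116 class II genes. Class II genes outside cluster 7 stood at 61.8% (49.9 to 72.4), close to class I. FOXA1nhaa gave 65.5% for class I and 61.8% for class II outside cluster 7. The FOXA1rraa list differed more, with 49.1% (36.4 to 61.9) of class I genes and 25% (16.2 to 36.4) of class II genes outside cluster 7, and its intervals only just met at 36.4%.

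Single genes gathered very different numbers of peaks. OR51B5, a class I gene whose annotated body of 202209 bp is the longest of the members, had 22 FOXA1 peaks in its window, of which 18 overlapped the body. It also had 12 FOXA1nhaa, 5 FOXA1rraa, 2 HNF4A and 1 FOXA1dbd peaks, and its body overlaps other protein-coding genes. OR51I2 had 8 FOXA1 peaks, and OR2AG1, OR6A2, OR5B12 and OR5B3 had 7 each. These counts are of rows, and pieces of a longer peak are counted apart, as at OR51I2, OR2AG1, OR6A2 and OR5B12. The order of the genes was not recomputed with joined rows. OR56B1, OR51B2, OR51B6, OR5B2 and OR10V1 followed with 6 each. In all, 28 genes had exactly 1 FOXA1 peak, 17 had 5 or more and 96 had none.

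The other lists led with partly different genes. For FOXA1nhaa, OR52H1, OR5B2, OR51V1, OR51B6 and OR10A6 had 4 peaks each after OR51B5. OR52H1 had 2 FOXA1 peaks. For FOXA1rraa, OR10A6 had 5 peaks and OR2AG1, OR6A2, OR10A3 and OR51V1 had 4 each. FOXA1dbd never had more than 2 peaks at a gene, and reached that at OR1S2, OR1S1 and OR51V1. HNF4A also reached 2 at most, at genes that included OR52B6, OR51B5, OR51B6, OR51M1 and OR2AT4.

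Few peaks overlapped the receptor coding sequence, which is short. The coding exons of the members add up to 0.162 Mb, and 0 FOXA1, 0 FOXA1dbd and 0 FOXA1rraa peaks overlapped them, where a count of 0 among 126 FOXA1 peaks allows a share of up to 2.38%. An HNF4A peak scored 32 and a FOXA1nhaa peak scored 61 overlapped the coding exon of OR56B1 and each other. The coding exons had a G+C content of 46.2%, with 130 forkhead cores per Mb against 457 in the windows as a whole, and 93.3% of their words occur once. The count of 0 FOXA1 peaks gives an upper limit of 22.8 per Mb of coding exon, which lies within the interval of the windows. The single FOXA1nhaa and HNF4A peaks each gave 6.17 (0.156 to 34.4) per Mb, and their intervals hold the values of the windows. A lower density over coding exons was not detectable at this size.

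Peaks within 1 kb of the starts of the receptor genes were 3.97% (1.71 to 8.95) of the FOXA1 and 7.61% (3.73 to 14.9) of the FOXA1nhaa peaks. The share of window bases near these starts, and the same counts over all protein-coding genes, were not made. Whether peaks were scarce at the starts cannot be read from these values. By its centre, a FOXA1 peak lay within 1 kb of the start of a member in 5 cases, near OR10A2, OR9Q2, OR4D10 and OR5B12, which had 2. FOXA1nhaa had 7 such peaks, near OR52I1, OR52H1, OR10Q1, OR51V1, OR56B1, OR52N1 and OR5B2. FOXA1dbd had 1, near OR5B12, HNF4A had 1, at OR56B1, and FOXA1rraa had 0 of 48, which allows up to 6.25%. A peak of any list lay over the body, or had its midpoint within 1 kb of the start, of 26 members, which leaves out OR51V1, where the centre of the peak lay within 1 kb and the midpoint did not. Among these OR51B5 was covered by all 5 lists, and OR56B1 and OR9Q1 by 4.

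Within the windows the FOXA1 peaks were placed differently from those elsewhere on the chromosome, but the sequence differed too. By their centres, 35.7% (27.9 to 44.4) of the FOXA1 peaks lay between annotated genes, compared with 19.8% in the rest of chromosome 11, and 36.5% (28.6 to 45.2) lay in introns, compared with 64.9%. Other protein-coding genes covered 0.929 of the 4.87 Mb of the windows, and protein-coding genes covered 63.8 of the 126 Mb of the rest. The shares of bases in introns and between genes were not counted, so no preference of the peaks can be read from this. Of the 19 HNF4A peaks, 8 lay within 1 kb of a start of some gene, 8 in introns and 3 between genes, or 42.1%, 42.1% and 15.8%. In the rest of the chromosome the HNF4A values were 40.3%, 38% and 17.5%, and the differences lay within counting error. HNF4A peaks at a start and over a neighbouring gene included those over TRIM6, scored 467 with OR52B6 as the nearest member, over SLCO2B1 beside OR2AT4, scored 175, and over ZNF215 beside OR2D3, scored 51. Other protein-coding genes were overlapped by 10 of the 19 HNF4A peaks and by 43 of the 126 FOXA1 peaks.

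The strongest FOXA1 peak of the windows lay in an intron 7860 bp from OR2D2 and scored 585, with 590 of the 155652 FOXA1 peaks ranked above it. It is 555 bp wide, holds the core shown above and was overlapped by peaks of all 3 variants, where the FOXA1rraa row is a FOXA1nhaa row. The FOXA1dbd peak inside the FOXA1 peak scored 62. The strongest HNF4A peak of the windows, scored 527, lay 1497 bp from the same gene and was overlapped by no FOXA1 list. OR2D2 had 3 FOXA1 peaks and 1 peak of each other list in its window, and was 1 of 4 members reached by all 5 lists.

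Next in score were FOXA1 peaks near OR8A1, at 443, and near OR52A1 and OR5B21, at 374 each. The strongest FOXA1dbd peak lay near OR52E2 at 183, and the next near OR51L1 and OR9Q2 at 145 each. For FOXA1nhaa the leading peaks lay near OR52K1 at 243, OR8G1 at 203 and OR56B1 at 193. The 3 leading FOXA1rraa peaks, near OR52N4 at 360, OR2AG1 at 335 and OR10A3 at 332, are FOXA1 rows. HNF4A led with OR2D2, OR52B6 at 467 and OR5P3 at 313. Scores come from separate peak calls and cannot be compared between lists.

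The overlap of the lists asks which FOXA1 sites the variants shared. FOXA1nhaa overlapped 35 of the 126 FOXA1 peaks in the windows, 27.8% (20.7 to 36.2), compared with 41.1% (39.8 to 42.3) of FOXA1 peaks in the rest of chromosome 11. Seen from the variant, FOXA1 overlapped 36 of 92 FOXA1nhaa peaks, 39.1% (29.8 to 49.3), compared with 57.2% (55.7 to 58.6). FOXA1dbd overlapped 18 FOXA1 peaks, 14.3% (9.23 to 21.5), compared with 17.9%, a difference within counting error. In the windows 3 FOXA1dbd rows have the coordinates of FOXA1 rows, and the overlap was not recomputed without them. FOXA1rraa overlapped 42, 33.3% (25.7 to 41.9), compared with 39.1%. Without the rows it shares with the FOXA1 list it overlapped 19, or 15.1%, all by rows of the FOXA1nhaa list. Its 7 rows with the prefix Nonspecific_FOX overlapped no FOXA1 peak.

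The overlap with FOXA1nhaa was also counted by the score of the FOXA1 peak. Whether the difference depended on the score was not tested. Above the median score of the whole FOXA1 list, FOXA1nhaa overlapped 22 of 51 FOXA1 peaks in the windows, 43.1% (30.5 to 56.7), and 52% in the rest of the chromosome, a difference within counting error. At or below the median it overlapped 13 of 75, 17.3% (10.4 to 27.4), and 30.6%, a difference beyond counting error. Outside the bodies of other protein-coding genes the shares were 32.5% (23.4 to 43.2) in the windows and 36.2% (34.1 to 38.4) in the rest, a difference within counting error. From the variant the same comparison gave 43.1% (31.8 to 55.2) and 47% (44.4 to 49.5). For FOXA1 peaks at or below the median score it gave 22.9% (13.3 to 36.5) and 26.2% (23.5 to 28.9), again within counting error. Above the median it gave 45.7% (30.5 to 61.8) and 48% (44.7 to 51.4).

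**Figure D5:**
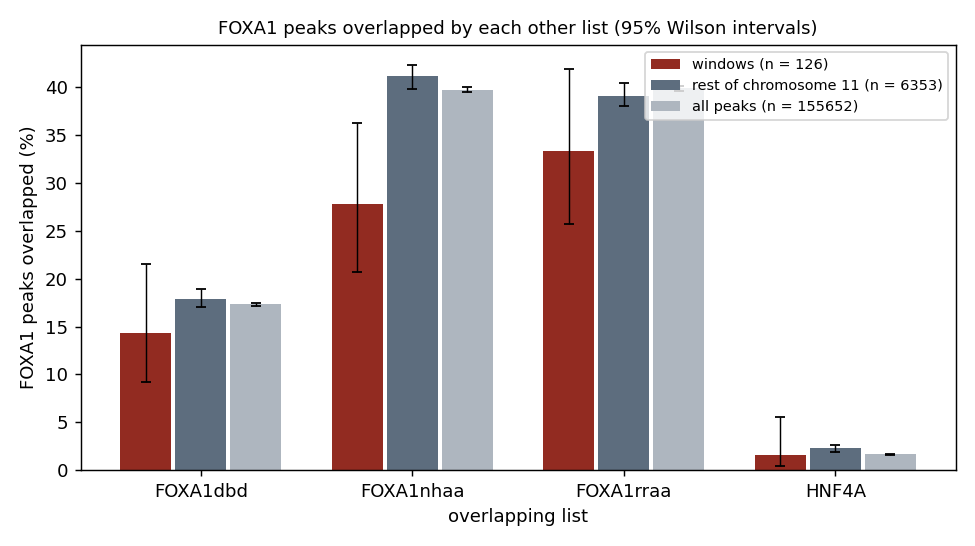
Percent of FOXA1 peaks overlapped by at least 1 bp (vertical axis) by each other list (horizontal axis), for the windows, the rest of chromosome 11 and the whole list (bars, with 95% Wilson intervals). FOXA1nhaa overlapped 27.8% of the peaks in the windows and 41.1% in the rest of the chromosome, and HNF4A overlapped few in any of them.

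Counted by gene, the lists were set beside the same counts over all protein-coding genes. Of the 75 genes with a FOXA1 peak, 61 also had a FOXA1nhaa peak in the window, 81.3% (71.1 to 88.5). The value was 84.8% for all protein-coding genes with a FOXA1 peak. Among genes under 10 kb the order was the other way, at 80.3% (69.2 to 88.1) for members and 70.5% (68.8 to 72.2), with intervals that overlapped. A FOXA1nhaa peak without FOXA1 was found at 19 genes, 11.1% (7.23 to 16.7), compared with 4.58% of protein-coding genes. Among genes under 10 kb these values were 9.15% (5.53 to 14.8) and 6.93%, a difference within counting error. A peak of some list was found at 94 genes, 55% (47.5 to 62.2), and none at 77, where 91.5% of protein-coding genes had such a peak. Among genes under 10 kb the shares with such a peak were 52.3% (44.4 to 60) and 81.2%. The 4 FOXA1 lists met at 12 genes, 7.02% (4.06 to 11.9), compared with 40.7% of protein-coding genes, and among genes under 10 kb at 6.54% (3.59 to 11.6), compared with 15.8%. These lists are not independent, because FOXA1rraa holds rows of the FOXA1 and FOXA1nhaa lists and some FOXA1dbd rows have the coordinates of FOXA1 rows.

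Runs of neighbouring genes without a FOXA1 peak were led by the run of 47 genes in cluster 7. The next in length were OR51E2 to OR51A2, with 11 genes of which 5 had FOXA1nhaa, and OR6M1 to OR10G6 in cluster 11, with 6 genes of which 1 had FOXA1nhaa. The runs OR52K2 to OR52I1, with FOXA1nhaa at 4 of 5 genes, and OR8G1 to OR8D2, with FOXA1nhaa at all 4 genes, were named after their values were seen. A run of the same length, OR52E5 to OR52L1, had FOXA1nhaa at 1 of 4 genes.

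Peaks of all 3 variants overlapped 5 FOXA1 peaks, near OR2D2 (585), OR5B21 (374), OR51V1 (353 and 250) and OR10Q1 (158), where the values are FOXA1 scores. At these sites the FOXA1rraa row is itself a FOXA1nhaa row, so the overlap by both was built into the lists. At the site near OR5B21 the FOXA1dbd row has the coordinates of the FOXA1 row. No other FOXA1 list overlapped 62 of the 126. FOXA1 peaks overlapped by FOXA1dbd had a median score of 154 and the other FOXA1 peaks in the windows one of 110. For FOXA1nhaa the medians were 153 and 106. HNF4A overlapped 2 FOXA1 peaks, near OR10V1 (103) and OR5B3 (61), 1.59% (0.436 to 5.60), compared with 1.68% of all FOXA1 peaks.

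Of the 3 FOXA1dbd peaks that lay outside FOXA1 peaks, the 2 highest in score were near OR9Q2 (145) and OR5B12 (105). Both held a forkhead core in the centre, and the one near OR5B12 is shown above. The nearest FOXA1 peak lay 3943 bp from the first and 1320 bp from the second. The remaining peak scored 46 and is not described here. In the whole list 96.2% of FOXA1dbd peaks overlapped a FOXA1 peak, and in the windows 85.7% (65.4 to 95).

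Forkhead cores were counted in the central 200 bp of each peak. They were found in 19 of 126 FOXA1 peaks, 15.1% (9.87 to 22.4), 12 of 92 FOXA1nhaa peaks, 13% (7.62 to 21.4), and 8 of 48 FOXA1rraa peaks, 16.7% (8.70 to 29.6). The whole lists stood at 18.2%, 13.6% and 20%, within these intervals. For FOXA1dbd the count was 8 of 21, 38.1% (20.8 to 59.1), and 22.1% in the whole list, also within the interval. HNF4A had 0 of 19, which allows up to 15.8%. A core was present in 8.31% of all 200-bp stretches of the windows, so the share in FOXA1 peaks was above that of the surrounding sequence and the share in FOXA1nhaa peaks overlapped it. The HNF4 core CAAAGTCCA, searched on both strands, was in 0 peaks of each list and in 0.263% of the stretches, which leaves little to be seen in 19 peaks.

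Promoters of the members were read from a RefSeq table of GRCh38.p14, which gives 250 bases before to 50 after each start, and 133 member symbols matched it with 136 promoters. A forkhead core was present in 17 of them, 12.5% (7.95 to 19.1), compared with 5.97% of 35116 promoters in all. The median G+C content was 37% in the members and 58.7% over all promoters. Promoters of the other olfactory receptor symbols of that table, not limited by chromosome, stood at 11.2% (7.42 to 16.5). A match is a description of the letters and no site, and 5 of the 126 FOXA1 peaks lay within 1 kb of a member start.

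Genes of olfactory signalling and receptor choice were examined in the same way, as a list of 22 genes. FOXA1 had a peak in the window of 18, or 81.8% (61.5 to 92.7), against 76% of all protein-coding genes. FOXA1dbd reached 9, or 40.9%, against 45.4%, and FOXA1nhaa reached 18, against 69.1%. FOXA1rraa reached 14, or 63.6%, against 61.5%, and HNF4A 16, or 72.7%, against 75.3%. The value for all protein-coding genes lay within the interval of the list for each construct, and the median number of FOXA1 peaks was 2.5, against 3. EBF1, a transcription factor that acts with LHX2 and LDB1 at receptor enhancers, had 42 FOXA1, 28 FOXA1nhaa and 3 HNF4A peaks over a body of 403997 bp. LHX2 had 0 peaks of any FOXA1 list and 1 of HNF4A. OMP, which encodes the marker protein of mature olfactory neurons, had 0 FOXA1 and 2 HNF4A peaks, and CNGA2, a subunit of the olfactory cation channel, had none. GNAL, the G protein subunit of the pathway, had 13 FOXA1 and 13 FOXA1nhaa peaks, ADCY3, its adenylyl cyclase, had 3 and 2, and RTP1, which helps receptors to the cell surface, had 3 and 3. CNGA4, another channel subunit, is on chromosome 11 beyond cluster 1 and had 3 FOXA1 peaks and 1 peak of each variant.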

How the data were processed

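ChIP-seq peak lists of 5 HALO-tagged constructs in BJ fibroblasts were analysed, 1 list per construct, with groups taken from the sample titles. Per the submitters' processing notes, the tools were Bowtie2 2.3.4.1, Picard, GATK 4.2.6.0, bedtools 2.27.1, MACS2 2.2.7.1 and deepTools 3.5.0 with build hg19, and neither their order nor the use of inputs or pooling of replicates is given there. The deposited FOXA1 list gives a score per peak. The other deposited lists give a score, a fold enrichment (ratio), the −log10 p-value and the −log10 q-value. These values are the authors' own and only describe or rank peaks within a list, by the score for FOXA1 and by the −log10 q-value for the others. The lists hold no read counts. The down-sampled FOXA1 list and the H2B samples were not used here.

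Genes came from GENCODE 44 lifted to GRCh37 and sequence from GRCh37. Rows with the same coordinates were counted as 1 peak. Densities use bases that are known in the reference. Cores were searched in 200 bp centred on the summit, or on the midpoint of rows without a summit within them, which include all FOXA1 rows. A peak centre was assigned to a start within 1000 bp, then to an exon, an intron or the space between genes. The share of 50-base words occurring once was counted over the whole reference at steps of 50 bases. Named genes were, by rule, the 10 with the most FOXA1 peaks and the 5 with the most of each other list, up to 15 with a peak over body or start, the 3 highest-ranked peaks of each list, up to 5 sites shared with all variants and with HNF4A, and the 3 longest runs without FOXA1. The sequence of 1 site is not reported here. Further names were chosen after their values were seen. The members, lists and tests were chosen with earlier results of these data known. Counting, overlap and motif code was tested on simulated data. Software was Python 3.11.15, numpy 2.4.6, pandas 2.3.3, scipy 1.17.1 and pysam 0.24.0.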

Additional observations from a re-analysis of the deposited data

How the results depend on the processing

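The counts of peaks, shares of genes with a peak, density ratios, shares of FOXA1 peaks overlapped and shares with a core were recomputed, each under the settings that apply to it. Joined rows apply to FOXA1, leaving out FOXA1 rows to FOXA1rraa and leaving out OR51B5 to the counts of peaks. Other values (scores, positions, promoters, receptor classes, the 22 genes) were not recomputed. The settings without cluster 7 and without OR51B5 were chosen after the data were seen. Of 104 recomputed values 51 stayed close to the reported value (a count within 1.5 times, a share or ratio within its interval) and 53 did not. No density ratio crossed 1. Joined FOXA1 rows moved none of the recomputed values this far. Densities of single clusters and counts of peaks per gene were not recomputed with joined rows. Leaving out OR51B5 could hardly move a count, because windows of other members cover its body, and the FOXA1 count went from 126 to 125. Counts over gene bodies and density ratios were not recomputed without it. With the gene body alone, the windows held 43 FOXA1, 5 FOXA1dbd, 29 FOXA1nhaa, 13 FOXA1rraa and 5 HNF4A peaks. The share of genes with a peak was then 10.5%, 2.92%, 9.36%, 4.68% and 1.75% in the same order, and the density ratio was 0.904 for FOXA1, 0.854 for FOXA1nhaa and 0.613 for FOXA1rraa. With 50 kb on either side the counts were 194, 42, 141, 82 and 41, the shares 54.4%, 31%, 64.9%, 41.5% and 25.1%, and the HNF4A ratio 0.351. The top 50% of each list by score gave 52 FOXA1, 43 FOXA1nhaa, 25 FOXA1rraa and 10 HNF4A peaks, as a smaller list must, shares of 30.4%, 12.3%, 33.3%, 18.1% and 7.60% for the 5 lists, a FOXA1 ratio of 0.421, and 0% of FOXA1 peaks overlapped by HNF4A. A midpoint within 1 kb of the gene start was found for 2.34%, 0.585%, 3.51%, 0% and 0.585% of genes. Without the bodies of other protein-coding genes the FOXA1 ratio was 0.418. Without cluster 7 the shares were 60.2% for FOXA1, 26% for FOXA1dbd, 63.4% for FOXA1nhaa and 35.8% for FOXA1rraa, and the ratios 0.687 for FOXA1 and 0.690 for FOXA1nhaa. Without its FOXA1 rows the FOXA1rraa list had 25 peaks in the windows, at 18.7% of genes. It then overlapped 15.1% of FOXA1 peaks, all by FOXA1nhaa rows. In the central 100 bp forkhead cores were in 9.52% of FOXA1, 7.61% of FOXA1nhaa and 2.08% of FOXA1rraa peaks, and the cause was not tested. No paired analysis was possible because only 1 list was used for a construct, and leaving out a replicate was likewise not possible.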
